A study of Mus musculus with 26 samples.

Results

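The collagen and laminin genes are the genes on the array whose symbol is that of a collagen alpha chain (Col, a number, a and a number) or of a laminin alpha, beta or gamma chain (Lama, Lamb or Lamc and a number). Membership was set by the name alone, but the set was chosen with earlier results of these data known. There were 52 such genes among 18193 genes with a symbol, measured by 101 probe sets, and 33 of them had more than 1 probe set. The probe set with the highest mean over all arrays stood for each gene. A gene was tested where at least 2 of the 26 arrays lay above the overall median of 6.14 on the log2 scale used here. That left 39 of the 52 genes, among 13951 genes tested. The 13 genes not tested were Col1a1, Col2a1, Col4a3, Col4a4, Col8a2, Col9a2, Col10a1, Col15a1, Col17a1, Col22a1, Lama5, Lamb2 and Lamb3. In 12 of these 13 no array passed the median, and in Col17a1 1 array did.

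The study measured retinal neurons of the mouse at postnatal day 6 on 26 Affymetrix arrays: 13 subtypes, each sorted 2 times, the replicates being separate litters. P-values here measure the spread between those litters. Cells were dissociated with papain and sorted by flow cytometry, and their RNA was amplified in 2 rounds. No group was treated, and the subtypes differ in reporter line, gate and in part in strain. The question is how the genes differ between neuron subtypes of one tissue.

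Of the 6 ganglion cell subtypes, all sorted as Thy1+, BD cells (bistratified dendrites), J cells, W3 cells and W7 cells carried YFP. Isl2 cells carried beta-galactosidase, and Cdh3 cells carried GFP from a bacterial artificial chromosome. These lines were on C57BL/6, except Cdh3, which is labelled Swiss Webster x C57BL/7 for replicate 1 and Swiss Webster x C57BL/8 for replicate 2. Of the 5 amacrine cell subtypes, starburst cells were Kusabira Orange+ Thy1- (C57BL/6), AII cells GFP+ (Swiss Webster x C57BL/6) and the glycinergic J amacrine subset YFP+ (C57BL/6). The GABAergic PaxCre subset was GFP+ (C57BL/6), and MP amacrine cells were CFP+VC1.1+ (mixed C57BL/6 x CD1). Of the 2 bipolar cell groups, MP bipolar cells were CFP+VC1.1- from the same mixed background and ON bipolar cells were GFP+ (C57BL/6).

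Collagen chains wind into triple helices, and the chain types differ in what they build. Type IV collagen forms the sheet of a basement membrane together with laminin, a cross-shaped trimer of an alpha, a beta and a gamma chain, and in the retina these sheets line the inner surface and the vessels. Fibrillar collagens form the fibrils of connective tissue, while the membrane-spanning collagens sit in the plasma membrane of the cell that makes them, neurons included.

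Col25a1 and the pair Col4a1 and Col4a2 carry the main patterns, so the sequences at their starts are shown here, from RefSeq on GRCm38.p6. Of the 52 genes, 38 matched the promoter table. The first sequence is the 250 bases before the start of Col25a1, chr3:130180595-130180844 on the plus strand, and its capitals mark the longest stretch that occurs in it more than once.
Col25a1: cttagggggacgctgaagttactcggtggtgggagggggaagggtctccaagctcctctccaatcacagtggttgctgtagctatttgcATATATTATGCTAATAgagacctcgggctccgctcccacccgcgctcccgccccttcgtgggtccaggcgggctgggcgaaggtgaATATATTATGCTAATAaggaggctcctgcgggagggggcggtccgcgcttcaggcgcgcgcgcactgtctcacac
The repeated stretch, ATATATTATGCTAATA, has 16 bases and 2 copies, and 1 of 32851 promoter windows of 300 bases held it on either strand. That 1 window was the one of Col25a1 itself. A repeat of that length, of any letters, stood in 1.98% of the windows upstream of the start, and 2 of the 38 matched genes had one. The stretch was picked after the sequence was seen and is a description only.

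Col4a1 and Col4a2 lie head to head on chromosome 8. The second sequence is chr8:11312801-11312830 on the plus strand, and its capitals mark the 22 bases from the start of Col4a2 (11312805, plus strand) to that of Col4a1 (11312826, minus strand).
Col4a1/Col4a2: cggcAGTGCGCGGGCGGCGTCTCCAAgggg
Among the 38 matched genes, this was the 1 pair with starts on opposite strands within 1000 bases.

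Values are given as log2(intensity + 16) after quantile normalization, where the lowest deposited intensities lie at 4.09, and the 2 numbers after a subtype are its replicates 1 and 2. Differences on this scale understate the change of dim genes. A gene was called in a comparison where limma's moderated test gave an adjusted p under 0.05 over all tested genes and the difference was at least 1. The ganglion cell columns were deposited on a higher scale (medians 61.5 to 74.7) than the others (37.4 to 47.2), and this cannot be told apart from cell class. Class markers followed the labels, but less so in MP amacrine cells. Summed ganglion cell markers were 25990 to 35044 in the ganglion cell arrays and at most 8909 elsewhere. Bipolar markers were 11477 to 17992 in the bipolar arrays and at most 3414 elsewhere. Starburst markers were 17071 and 17008 in starburst cells and at most 7566 elsewhere. Amacrine markers were 16103 to 21635 in 4 amacrine subtypes but 4789 and 4596 in MP amacrine cells, and at most 3965 in ganglion cell arrays. The MP amacrine arrays also had the highest ganglion cell marker sums outside the ganglion cell arrays (8909 and 6784). Rod markers were 15492 and 10910 in MP amacrine, 10355 and 12231 in MP bipolar, 9118 and 6698 in ON bipolar and 5591 and 6321 in AII cells, and at most 5546 elsewhere. Sorted pools are mixtures: more cells of a type and more RNA per cell cannot be told apart. Summed intensities of 10 pericyte and smooth muscle markers ran from 451 to 13712 in the ganglion cell arrays and from 230 to 868 in the other arrays, with Tagln and Myh11 at or below the median in all 26 arrays. Those of 9 microglia and macrophage markers ran from 867 to 20799 and from 427 to 5052. J ganglion cells were highest in both lists. Of the 8 tested pericyte and smooth muscle markers, 7 were called higher in ganglion than in amacrine cells (background 15.8% of all genes tested).

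Over the 13 subtypes, 33 of the 39 tested genes differed by limma's F test (adjusted p under 0.05, range of subtype means at least 1), beside a background of 71.3% of all genes tested, so most of the transcriptome varied and most of these genes with it. The median range of the subtype means was 2.40 for the 39 genes and 1.58 for all genes tested. In 22 genes the range was at least 2. Without the J ganglion cell arrays 30 genes were called (background 70.4%), and Col6a3, Col11a1 and Lamc1 were the 3 lost. Among the 6 ganglion cell subtypes alone the F test called 5 genes (background 5.94%): Col5a2, Col6a4, Col24a1, Col25a1 and Lama4. Among the 7 amacrine and bipolar subtypes it called 21 (background 47.3%). The 6 tested genes not called over the 13 subtypes were Col5a1, Col7a1, Col11a2, Col14a1, Col18a1 and Lama3, with ranges from 0.48 in Col5a1 to 1.05 in Col14a1.

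**Figure D1:**
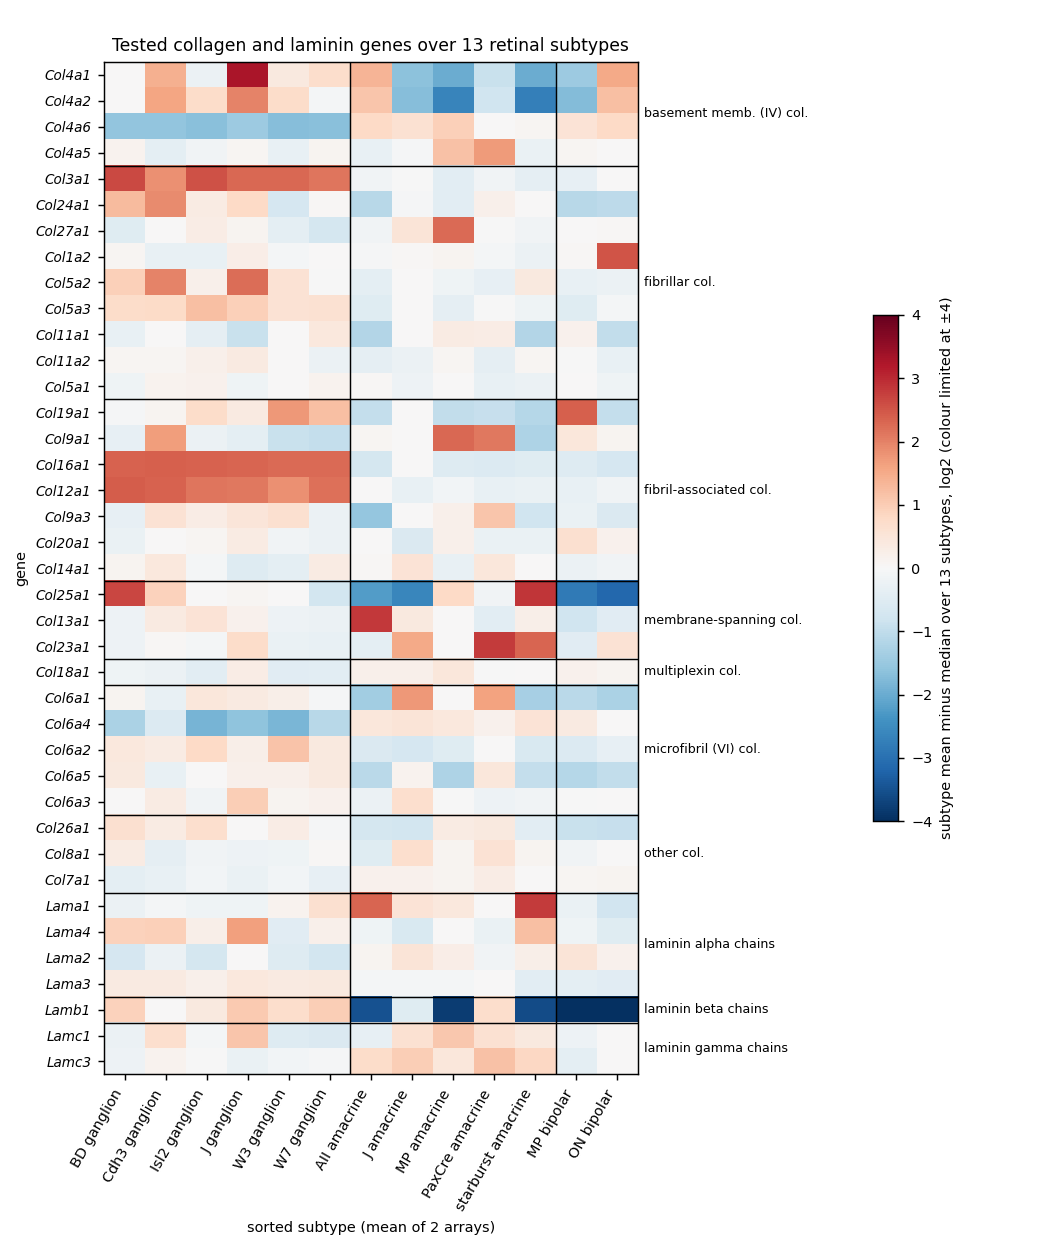
Subtype means (2 arrays each) of the 39 tested collagen and laminin genes, as the log2 difference from each gene's median over the 13 subtypes, grouped by role. Col25a1 peaks in starburst and BD cells, Lama1 in starburst and AII cells and Col13a1 in AII cells, whereas Col16a1, Col12a1 and Col3a1 change at the border between the ganglion cell columns and the rest.

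Col25a1, which encodes a membrane-spanning collagen of neurons, had the widest range of all 52 genes, 6.00 between subtype means. It was brightest in starburst amacrine cells (11.67 and 11.34) and BD ganglion cells (11.04 and 11.61), and these 4 arrays overlapped one another and lay above the other 22. Cdh3 ganglion cells followed with 9.63 and 9.55, overlapping MP amacrine cells at 9.34 and 9.57. The next arrays were those of Isl2 cells (9.01 and 8.35), J ganglion cells (8.52 and 8.95), W3 cells (8.68 and 8.64) and PaxCre amacrine cells (8.43 and 8.59), which overlapped as a group. W7 cells read 7.87 and 8.00. AII cells (6.71 and 6.15), J amacrine cells (6.94 and 5.14), MP bipolar cells (5.77 and 5.90) and ON bipolar cells (4.93 and 6.08) formed the lowest group, below every other array. So the amacrine subtypes spanned nearly the whole range of the gene, while every ganglion cell array lay above the lowest group.

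Against the other subtypes of their class, starburst cells were 3.90 higher in Col25a1 (SE 0.34, adjusted p 1.1e-07) and BD cells 2.60 higher (SE 0.34, adjusted p 5.4e-04). MP amacrine cells were 1.33 higher, while AII cells fell by 2.44, J amacrine cells by 2.94 and W7 cells by 1.46. Bipolar cells were lower than amacrine cells by 2.72 (SE 0.26, adjusted p 1.8e-07) and lower than ganglion cells by 3.48, with no overlap against the ganglion cell arrays. Ganglion minus amacrine cells gave 0.77, under the size needed for a call. Without BD replicate 2 the BD difference was 2.32 with an adjusted p of 0.090, and the W7 call was lost without either W7 array (adjusted p 0.19 and 0.26). The second Col25a1 probe set was dim, between 5.38 and 6.55 in all 26 arrays. It was highest in starburst cells (6.46 and 6.55), 0.65 above the other amacrine subtypes (adjusted p 0.019, under the size limit), but it gave -0.15 for BD cells (adjusted p 0.85) and -0.20 for MP amacrine cells (adjusted p 0.48). The AII, J amacrine, W7 and both bipolar differences lay between -0.25 and -0.01 with it and were not called. The called Col25a1 differences therefore rest on 1 probe set, and the second turned the direction in BD and MP amacrine cells.

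Col13a1, a membrane-spanning collagen best known from the neuromuscular junction, was high in AII amacrine cells alone by its only probe set. Its AII arrays read 9.06 and 9.26, and the other 24 arrays lay between 5.43 and 7.04. AII cells exceeded the other amacrine subtypes by 2.78 (SE 0.18, adjusted p 3.0e-09), and PaxCre cells fell by 1.27 against theirs. Bipolar cells were 1.25 lower than amacrine cells.

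Col23a1, another membrane-spanning collagen, was highest in PaxCre cells (8.11 and 8.47), starburst cells (7.40 and 8.26) and J amacrine cells (7.12 and 6.90). These 6 arrays lay above the other 20, whose highest was J ganglion replicate 1 at 6.25. PaxCre cells were 1.93 higher than the other amacrine subtypes (SE 0.23, adjusted p 1.1e-05) and starburst cells 1.36 higher, while AII and MP amacrine cells fell by 2.06 and 1.56. ON bipolar cells (6.04 and 6.13) exceeded MP bipolar cells (4.95 and 5.16) by 1.03 (adjusted p 0.040), a call lost in 13 of 38 alternatives, among them the columns as deposited (adjusted p 0.13) and each of the 4 bipolar arrays left out (adjusted p 0.12 to 0.23). The starburst difference was 0.93 without starburst replicate 2. The second probe set gave the same sign in each of these comparisons, but passed the call in starburst cells alone (1.06), with 0.75 in PaxCre, -0.90 in AII and -0.93 in MP amacrine cells. The fourth gene of the group, Col17a1, was not tested.

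**Figure D2:**
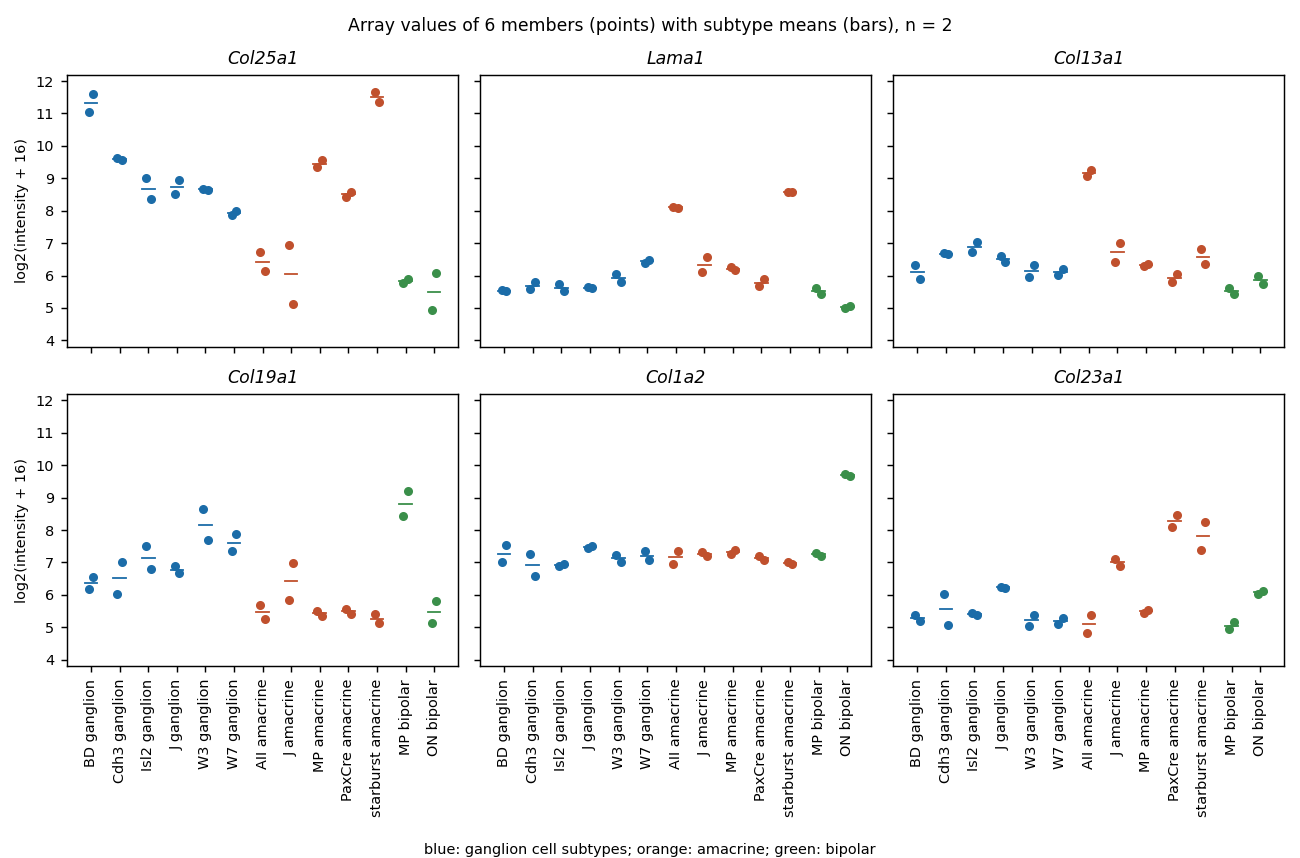
Array values (points, log2 scale on the y axis) and subtype means (bars, n = 2) of Col25a1, Lama1, Col13a1, Col19a1, Col1a2 and Col23a1 over the 13 subtypes. Each gene has a different set of high subtypes: starburst and BD cells for Col25a1, starburst and AII cells for Lama1, AII cells for Col13a1, MP bipolar cells for Col19a1, ON bipolar cells for Col1a2, and PaxCre and starburst cells for Col23a1.

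Of the type IV chains, Col4a1 and Col4a2, which pair in nearly every basement membrane, moved together: r was 0.94 over the 13 subtype means, 0.79 over the 6 ganglion and 0.98 over the 7 other subtypes (descriptions over points that share normalization). Col4a1 was highest in J ganglion cells (10.71 and 11.66), Cdh3 ganglion cells (10.67 and 8.03), ON bipolar cells (9.85 and 9.0) and AII cells (9.21 and 9.36). It was 8.65 and 7.99 in W3, 8.61 and 8.66 in W7, 7.81 and 7.55 in Isl2 and 9.64 and 6.20 in BD cells. The remaining 10 arrays, those of J amacrine, MP amacrine, PaxCre, starburst and MP bipolar cells, lay between 5.35 and 7.10. The replicates of BD and Cdh3 cells were far apart, and BD replicate 2 lay among the lowest arrays.

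Col4a2 read 10.42 and 10.55 in J ganglion, 10.60 and 9.56 in Cdh3, 10.22 and 9.17 in ON bipolar and 9.84 and 9.41 in AII cells. Starburst cells (6.11 and 5.46) and MP amacrine cells (5.67 and 6.06) were lowest, next to J amacrine replicate 2 (5.54). High arrays therefore came from all 3 classes, and low arrays from amacrine and bipolar cells.

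AII cells exceeded the other amacrine subtypes by 3.0 in Col4a1 (SE 0.68, adjusted p 0.0021) and by 3.09 in Col4a2 (SE 0.50, adjusted p 1.2e-04). ON bipolar cells exceeded MP bipolar cells by 2.94 in Col4a2 (SE 0.63, adjusted p 0.0058), lost without MP bipolar replicate 2 (adjusted p 0.088) or ON bipolar replicate 1 (adjusted p 0.10), and by 2.96 in Col4a1 (adjusted p 0.046), and that last call was lost under 23 of 38 alternatives. J ganglion cells were 2.81 above the other ganglion subtypes in Col4a1 (adjusted p 0.026), a call lost without either J array (adjusted p 0.067 and 0.42). Ganglion cells exceeded amacrine cells by 1.96 in Col4a1 (SE 0.37, adjusted p 1.2e-04) and 2.18 in Col4a2 (SE 0.27, adjusted p 1.1e-06), and without the J arrays by 1.49 and 1.95. In Col4a2, MP amacrine cells fell by 1.61 (adjusted p 0.025), and starburst cells fell by 1.71 (adjusted p 0.017) against the other amacrine subtypes. The former was lost without either MP amacrine array (adjusted p 0.19 and 0.097), the latter without starburst replicate 2 (adjusted p 0.21).

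The 2 probe sets of Col4a1 parted in AII and ON bipolar cells. The second one was high in J ganglion cells (9.33 and 9.83) and Cdh3 cells (9.80 and 7.35), but read 5.24 and 5.05 in AII cells and 5.77 and 4.92 in ON bipolar cells, with the other amacrine and MP bipolar arrays between 4.47 and 5.67. With it, AII minus the other amacrine subtypes was 0.14 (adjusted p 0.90) and ON minus MP bipolar cells 0.55 (adjusted p 0.88), whereas ganglion minus amacrine cells was 2.56 (adjusted p 3.5e-06). Col4a2 has a single probe set. The summed pericyte and smooth muscle markers were highest in J ganglion cells (11150 and 13712), followed by Cdh3 (11251 and 2747) and BD cells (7120 and 700.5). In Cdh3 and BD cells replicate 1 was higher in these markers, in Col4a1 and in Col4a2. Replicate 1 was also higher in the markers in Isl2 (1744 and 477) and W3 cells (2245 and 451), and in their Col4a1. Their Col4a2 went the other way, with deposited intensities of 583.5 and 793.7 in Isl2 and 702.3 and 793.4 in W3 cells. The marker sums were 230.4 and 242 in AII and 263 and 322 in ON bipolar cells, below all ganglion cell arrays. Pericyte markers Rgs5 and Pdgfrb had means of 12.57 and 10.94 in J ganglion cells, 5.49 and 4.43 in AII cells and 5.01 and 4.97 in ON bipolar cells. Others of the list differed less, such as Notch3 with 8.63, 7.03 and 7.32 in the same order. Myh11, dim in all arrays, went the other way with 4.42, 4.88 and 5.34. The part of pericytes in the ganglion cell values was not tested.

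**Figure D3:**
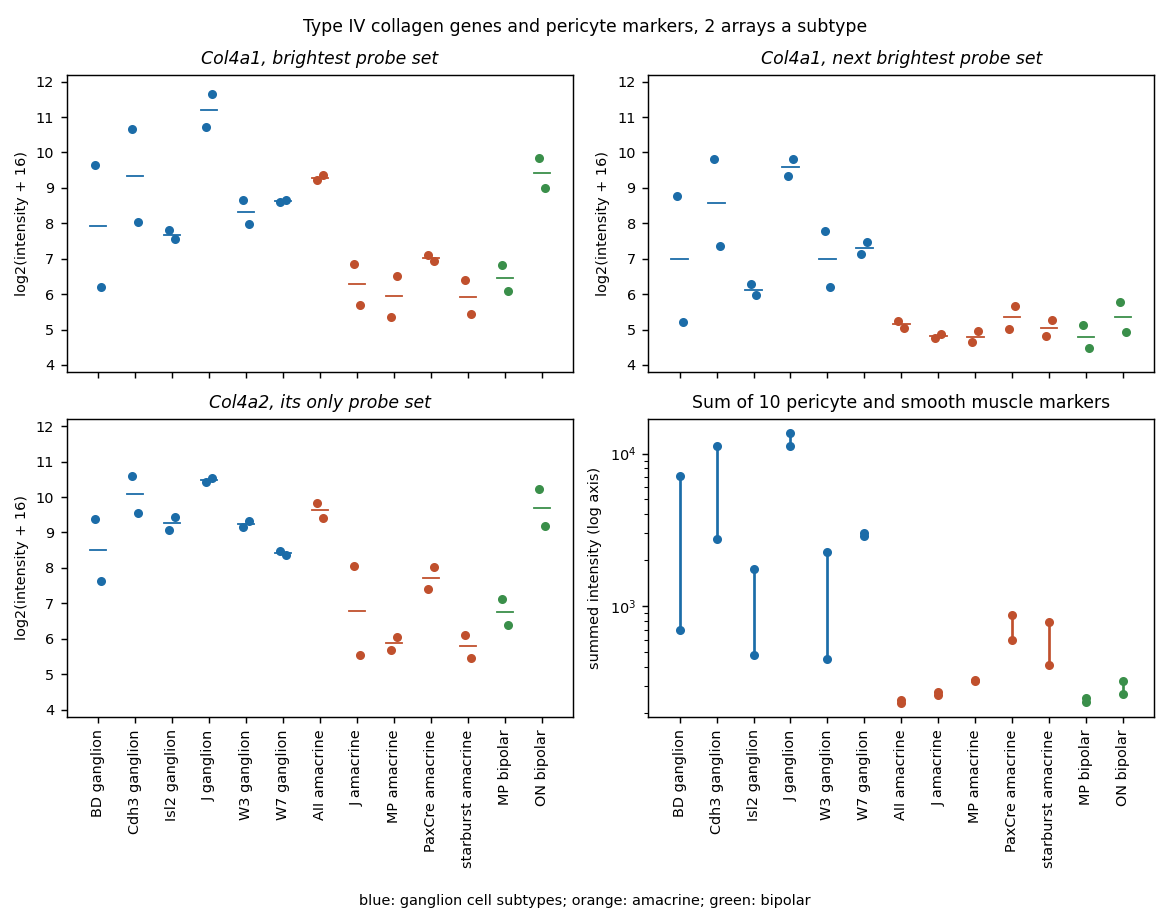
Col4a1 by its brightest and its next brightest probe set and Col4a2 by its only one (log2 scale, points are arrays, bars are means, n = 2), and the summed intensity of 10 pericyte and smooth muscle markers (log axis, the 2 arrays of a subtype joined by a line). AII and ON bipolar cells are high in the first Col4a1 panel and in Col4a2, and low in the second Col4a1 panel and in the marker sum.

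Col4a5, a chain of the other type IV networks, was highest in PaxCre cells (7.26 and 8.11) and MP amacrine cells (7.21 and 7.07), and these 4 arrays lay above the other 22, which reached 6.51. PaxCre cells were 1.57 above the other amacrine subtypes (SE 0.24, adjusted p 1.8e-04). The second Col4a5 probe set was dim, between 4.30 and 5.24, and did not follow the first (r -0.35 over 13 subtypes), with PaxCre cells at 4.30 and 4.75 and MP amacrine cells at 4.49 and 4.36. Col4a6, its neighbour on the X chromosome, had ganglion cell arrays between 4.30 and 5.08 and other arrays between 5.79 and 7.20, with no overlap. Ganglion cells were 2.09 lower than amacrine cells in Col4a6 (SE 0.11, adjusted p 8.7e-12), and its second probe set also kept the classes apart. Over the 13 subtypes the r of these neighbours was 0.30. Col4a3 and Col4a4 were not tested.

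Among the fibrillar collagens 7 of 9 tested genes differed over the subtypes (background 71.3%). Col1a2, a chain of type I collagen, stood out in ON bipolar cells with 9.74 and 9.68, while the other 24 arrays lay between 6.58 and 7.53. ON bipolar cells exceeded MP bipolar cells (7.30 and 7.20) by 2.46 (SE 0.22, adjusted p 4.2e-07), and the second probe set gave 4.04 (9.56 and 9.35 in ON bipolar cells). Its partner chain Col1a1 was dim there (4.77 and 5.26). Of the 5 fibroblast and meninges markers, Dcn, Lum and Slc6a13 were at or below the median in all 26 arrays, and their sum was 152 and 146 in ON bipolar cells against 127 to 269 over all arrays.

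Col5a2, a chain of type V collagen, was highest in J ganglion cells (8.04 and 8.73) and Cdh3 cells (8.89 and 7.39), above every other array. BD cells read 7.16 and 7.01, and all 14 amacrine and bipolar arrays lay between 5.75 and 6.54. J cells were 1.5 above the other ganglion subtypes (SE 0.27, adjusted p 0.0048), or 1.16 without J replicate 2 (adjusted p 0.22). Cdh3 cells were 1.20 above theirs (adjusted p 0.013), a value of 0.45 without Cdh3 replicate 1 (adjusted p 0.51). W7 cells fell by 1.20, a call lost without either W7 array (adjusted p 0.11 and 0.36). The second Col5a2 probe set gave 2.13 for Cdh3, 0.66 for J (adjusted p 0.57) and -2.16 for W7 cells. Of the 39 genes, Col5a2 followed the mean of 15 endothelium and pericyte markers most closely over the 13 subtypes (r 0.90). Col12a1 (0.85) and Col16a1 (0.84), which separate ganglion cells from the rest, came next. Over the 6 ganglion cell subtypes the r of Col5a2 was 0.85, below that of several genes, among them Col4a1 (0.92), Col6a3 (0.91) and Lama4 (0.89). Sums of the 10 listed endothelium markers alone ran from 538 to 724 in ganglion cell arrays and from 338 to 1098 elsewhere. Esam and Egfl7 were called higher in ganglion than in amacrine cells. Yet Esam was highest in MP bipolar cells (mean 9.47) and Kdr in starburst cells (9.07). The part of endothelium and pericytes in the Col5a2 values was not tested.

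Col24a1, a minor fibrillar collagen with 1 probe set, was highest in Cdh3 cells (7.74 and 6.45) and BD cells (5.94 and 7.01), which overlapped, and was at the floor in AII cells (4.09 and 4.09). Cdh3 cells were 1.54 above the other ganglion subtypes (SE 0.37, adjusted p 0.024), a value of 0.89 without Cdh3 replicate 1 (adjusted p 0.45). AII cells fell by 1.04 in Col24a1 (adjusted p 0.038), a call lost in 10 of 37 alternatives, either AII array among them. Col27a1, a fibrillar collagen of cartilage, was high in MP amacrine cells (8.78 and 6.98) against 4.86 to 6.44 elsewhere. The difference to the other amacrine subtypes was 2.20 (SE 0.34, adjusted p 1.4e-04), and 2.04 with the second probe set (8.40 and 6.74). It was 1.30 without MP amacrine replicate 1 (adjusted p 0.014) and 3.10 without replicate 2. MP amacrine replicate 1, the brighter array in Col27a1, also had the highest rod marker sum (15492, against 10910 in replicate 2). MP bipolar cells, with rod sums of 10355 and 12231, read 5.77 and 5.52 in Col27a1. The part of rods in the Col27a1 values was not tested.

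Col3a1, the chain of type III collagen, lay between 6.41 and 8.19 in the ganglion cell arrays and between 4.35 and 5.12 in the others, and Col5a3 between 7.15 and 8.05 and between 6.06 and 6.86. Neither overlapped between these sets, nor differed within either by the F test. The second Col3a1 probe set behaved otherwise: 9.01 and 9.74 in J cells, 9.22 and 5.56 in Cdh3 cells, 7.66 and 4.62 in BD cells, and at most 6.76 in the remaining arrays. The second Col5a3 probe set lay at the floor in nearly every array.

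The fibril-associated collagens decorate fibrils or sit at interfaces between matrix and cells, and 6 of 7 tested genes differed (background 71.3%). Col19a1, which has been linked to synapse formation by interneurons, was highest in MP bipolar cells (8.43 and 9.20) and then in W3 cells (8.64 and 7.68), which overlapped, W7 cells (7.34 and 7.89) and Isl2 cells (7.51 and 6.78). ON bipolar cells read 5.12 and 5.81. ON minus MP bipolar cells was -3.35 (SE 0.42, adjusted p 2.7e-05), and -2.22 with the second probe set. Ganglion cells exceeded amacrine cells by 1.48 in Col19a1 and bipolar cells exceeded amacrine cells by 1.52, the latter resting on the MP bipolar arrays.

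Col9a1, a type IX chain, was highest in MP amacrine cells (9.67 and 10.25), PaxCre cells (9.18 and 10.37) and Cdh3 cells (9.36 and 9.29), and lowest in starburst cells (6.14 and 6.72). J amacrine cells (8.91 and 6.39) and MP bipolar cells (7.37 and 8.83) had replicates far apart. MP amacrine cells were 2.06 and PaxCre cells 1.83 above the other amacrine subtypes, and starburst cells fell by 2.35 (SE 0.52, adjusted p 0.0028). Each was lost without 1 array of its own: MP replicate 2 (1.77, adjusted p 0.12), PaxCre replicate 2 (1.23, adjusted p 0.42) or starburst replicate 1 (adjusted p 0.053). Cdh3 cells were 2.23 above the other ganglion subtypes (adjusted p 0.018), a call lost without either Cdh3 array (adjusted p 0.14 and 0.18). Col9a3 was 1.64 higher in PaxCre cells (8.20 and 8.38) than in the other amacrine subtypes and fell by 1.68 in AII cells (6.03 and 5.23), calls lost without replicate 2 of PaxCre (adjusted p 0.094) or of AII cells (adjusted p 0.077). The second Col9a1 probe set was dim and followed the first little (r 0.33). With it Cdh3 cells read 4.26 and 4.10, PaxCre cells 5.47 and 5.13, starburst cells 5.43 and 6.10 and MP amacrine cells 6.03 and 6.12. With the second Col9a3 probe set (r 0.05) limma called neither PaxCre (0.98, adjusted p 0.063) nor AII cells (-0.87, adjusted p 0.057). Although Col9a1 and Col19a1 are neighbours on chromosome 1, their r over 13 subtypes was -0.32.

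Col16a1 and Col12a1 formed a class step. Col16a1 read 6.96 to 7.25 in the 12 ganglion cell arrays and 4.09 to 5.32 in the other 14, a ganglion minus amacrine difference of 2.78 (SE 0.11, adjusted p 1.1e-13). Col12a1 read 6.33 to 7.12 and 4.11 to 4.78, a difference of 2.38 (SE 0.08, adjusted p 2.2e-14). With the second Col12a1 probe set that difference was -0.16 (adjusted p 0.30), and AII cells were highest (6.73 and 7.28). Col16a1 has 1 probe set.

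Among the tested genes, 4 lay higher in all 12 ganglion cell arrays than in any other (Col3a1, Col5a3, Col12a1 and Col16a1; background 9.39%) and 2 lower (Col4a6 and Col6a4; background 6.25%), shares close to the background of the array. The second probe set separated the sets in the same direction for Col4a6 alone. For Col14a1 (above) and for Col9a1, Col23a1 and Lamc1 (below) the second probe set separated them where the brightest did not. This pattern runs along the border between the 2 sets of columns that were deposited on different scales.

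**Figure D4:**
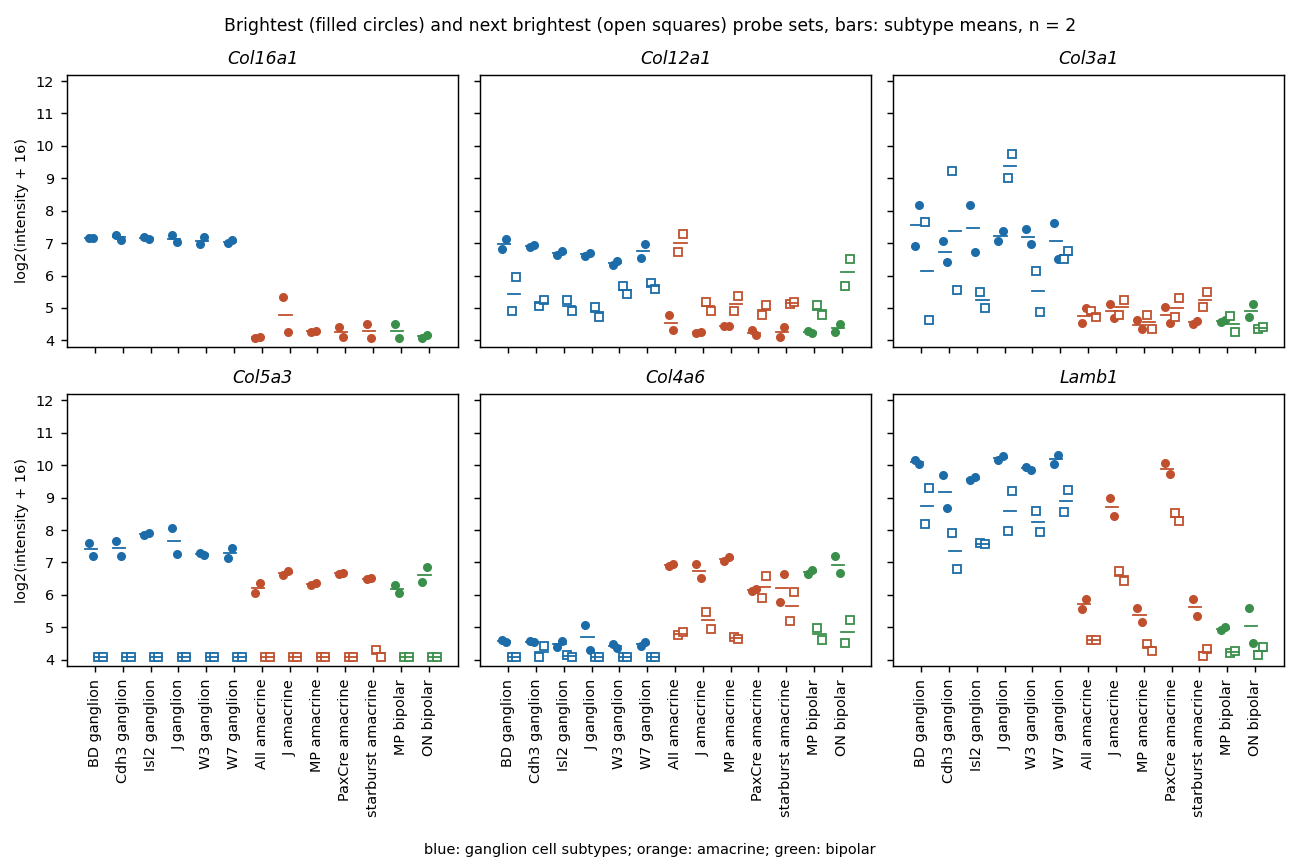
Array values by the brightest probe set (filled circles) and the next brightest (open squares) for Col16a1, Col12a1, Col3a1, Col5a3, Col4a6 and Lamb1 (log2 scale, bars are subtype means, n = 2; Col16a1 has a single probe set). Lamb1 shows the same pattern in both probe sets (r 0.99 over subtype means), with PaxCre and J amacrine cells beside the ganglion cells, while Col12a1 and Col3a1 change theirs.

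All 5 tested type VI collagens, which form beaded microfibrils, differed (background 71.3%). Col6a1, which has 1 probe set, was highest in J amacrine cells (9.95 and 9.70) and PaxCre cells (9.63 and 9.79), which overlapped and exceeded all others. Ganglion cells lay between 7.72 and 8.71 and MP amacrine cells at 8.07 and 8.14, while AII (6.89 and 6.55), starburst (6.57 and 6.99), MP bipolar (6.91 and 7.12) and ON bipolar cells (6.52 and 7.14) shared the lowest range. J amacrine cells were 2.0 (SE 0.17, adjusted p 5.6e-07) and PaxCre cells 1.85 above the other amacrine subtypes, and AII and starburst cells fell by 1.89 and 1.81. Bipolar cells were 1.31 below amacrine cells. Summed intensities of 8 Muller glia markers were likewise lowest in AII (1880 and 787), starburst (2834 and 2685) and bipolar cells (2412 to 3624). They were 7051 and 7741 in PaxCre, 6624 and 5971 in J amacrine, 3984 to 9230 in ganglion and 5087 and 5029 in MP amacrine cells. The order differed at the top: J ganglion cells (8320 and 9230) and Cdh3 replicate 1 (8347) had the highest sums, but lay below PaxCre and J amacrine cells in Col6a1. Of the 7 tested Muller glia markers, 3 were called higher in PaxCre and 2 in J amacrine cells (backgrounds 4.97% and 2.8%). In AII cells 6 were called lower and in starburst cells 3 (backgrounds 10.5% and 5.61%). Hes1 was at or below the median in all 26 arrays. Their part in the Col6a1 values was not tested.

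Col6a2, which lies next to Col6a1 on chromosome 10 and joins it in the same trimer, was 1.02 higher in ganglion than in amacrine cells, highest in W3 cells (8.67 and 8.91), and its second probe set gave 1.27. Without any 1 of 5 ganglion cell arrays, J replicate 1 being the lowest at 0.95, the difference fell short of the size limit. The r of the 2 genes was 0.29. Col6a3, the large chain of that trimer, was highest in J ganglion cells (7.02 and 7.76) and was called only with the J arrays included. Col6a4 was 1.79 lower in ganglion than in amacrine cells, and Col6a5 1.23 higher in PaxCre cells (6.08 and 5.68) than in the other amacrine subtypes, a call lost without either PaxCre array (adjusted p 0.20 and 0.073).

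Laminin chains did not share 1 pattern. Lama1, the alpha chain of early basement membranes, was highest in starburst cells (8.57 and 8.58) and AII cells (8.11 and 8.09), and no other array passed 6.56. ON bipolar cells were lowest (5.01 and 5.05), and Lama1 has 1 probe set. Starburst cells were 1.97 (SE 0.13, adjusted p 3.7e-09) and AII cells 1.38 (SE 0.13, adjusted p 5.0e-07) above the other amacrine subtypes, and PaxCre cells (5.68 and 5.89) fell by 1.52. Ganglion cells were 1.20 and bipolar cells 1.73 below amacrine cells. In starburst cells Lama1 was high where Col4a1 and Col4a2 were low, and in AII cells all 3 were high by their brightest probe sets.

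Lama4, the alpha chain of vessel laminin, was highest in J ganglion cells (6.23 and 7.05) and starburst cells (6.15 and 6.25), with Cdh3 (6.54 and 5.32) and BD cells (6.30 and 5.53) overlapping them and W3 cells low (4.36 and 4.74). J ganglion cells were 1.28 above the other ganglion subtypes (adjusted p 0.019), 0.87 without J replicate 2 (adjusted p 0.49), and W3 cells fell by 1.23 (adjusted p 0.042), a call lost under 14 of 35 alternatives. Starburst cells were 1.47 above the other amacrine subtypes (SE 0.29, adjusted p 0.0010). The second Lama4 probe set was dim, with a range of 0.89 between subtype means. It read 4.71 and 4.61 in starburst, 5.07 and 4.56 in W3 and 4.99 and 5.16 in J ganglion cells, so the starburst and W3 results rest on 1 probe set. The r of Lama4 with the endothelium and pericyte marker mean was 0.76 over the 13 subtypes. Lama2 had a range of 1.25, from 5.32 in W7 to 6.57 in MP bipolar cells, and no class or subtype call.

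Lamb1, the beta chain of most laminins, had the second widest range, 5.27. All ganglion cell arrays lay between 8.68 and 10.31, with PaxCre cells (10.08 and 9.72) inside that range and J amacrine cells (8.99 and 8.43) at its lower edge. AII (5.56 and 5.88), starburst (5.87 and 5.35), MP amacrine (5.60 and 5.15), MP bipolar (4.91 and 5.01) and ON bipolar cells (5.58 and 4.51) all lay below 6. PaxCre cells were 3.54 (SE 0.26, adjusted p 3.5e-08) and J amacrine cells 2.06 (SE 0.26, adjusted p 3.9e-05) above the other amacrine subtypes, and ganglion cells 2.80 above amacrine cells (SE 0.14, adjusted p 3.9e-12). The second Lamb1 probe set followed the first (r 0.99 over 13 subtypes) and gave 3.47, 1.18 and 2.60 for these differences. The Muller glia marker sums ran with this split too, except in MP amacrine cells (5087 and 5029), where Lamb1 was low, and their part in it was not tested.

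Lamc1, the gamma chain of most laminins, reached 7.96 and 7.48 in J ganglion cells and 7.18 and 8.16 in MP amacrine cells, but its F test (adjusted p 0.040) was lost in 19 of 36 alternatives. Lamc3, a gamma chain found at retinal synapses and the inner surface, was 1.03 lower in bipolar than in amacrine cells, with no overlap (5.18 to 6.19 against 6.22 to 7.20), and between -0.97 and -0.86 when MP bipolar replicate 1, ON bipolar replicate 2 or the AII or J amacrine replicate 2 was left out. No subtype contrast called either gene. Lamb2, Lamb3 and Lama5 were not tested.

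Of the remaining collagens, Col8a1, Col20a1 and Col26a1 differed over the subtypes with ranges of 1.16, 1.21 and 1.58. Col20a1 was highest in MP bipolar cells (6.49 and 6.66) and Col26a1 in Isl2 cells (6.68 and 6.86) and BD cells (6.88 and 6.64), which overlapped. Col26a1 was 1.21 lower in bipolar than in ganglion cells, with no overlap. Col11a1 was highest in W7 cells (6.91 and 7.57) and 1.04 lower in AII cells than in the other amacrine subtypes (adjusted p 0.049), a call lost in 29 of 37 alternatives, and its F test was called in 20 of 36.

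By class, ganglion cells exceeded amacrine cells in 10 of the 39 tested genes (background 15.8%) and were lower in 4 (background 9%). Higher were Lamb1, Col16a1, Col3a1, Col12a1, Col4a2, Col4a1, Col19a1, Col5a2 (1.09), Col6a2 and Col5a3 (1.01), and lower were Col4a6, Col6a4, Col23a1 (-1.26) and Lama1. The median difference was 0.17 for the 39 genes and 0.003 for all genes. Without the J arrays 12 genes were called, Col5a2 (0.84) and Col5a3 (0.98) falling below the size limit. Col5a2 also fell short without Cdh3 replicate 1 (0.97), and Col5a3 without any 1 of 5 arrays (0.95 to 0.99). With the columns as deposited, where the median of all genes shifted by 0.53, the calls were 13 higher and 2 lower, and Col23a1 (-0.87) and Lama1 (-0.72) lost theirs with the direction kept.

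Bipolar cells exceeded amacrine cells in 3 genes (background 4.67%): Col19a1, Col1a2 and Col4a2. They were lower in 7 (background 5.7%): Col25a1, Lamb1, Lama1, Col6a1, Col13a1, Col23a1 (-1.17) and Lamc3. The 3 higher calls each rest on 1 of the 2 bipolar sorts, MP for Col19a1 and ON for Col1a2 and Col4a2, and the Col4a2 call (1.08, adjusted p 0.033) was lost in 9 of 38 alternatives, with 0.81 without ON bipolar replicate 1 (adjusted p 0.18). Against ganglion cells, bipolar cells were higher in 3 genes (background 11.2%) and lower in 12 (background 18.5%). Lamb1 (-4.86), Col25a1 and Col16a1 (-2.92) fell most, and Col4a6 (2.28), Col6a4 (1.56) and Col1a2 (1.33) were the 3 higher. The Col4a2 difference, -1.10, was lost without BD replicate 1 (-0.95) and without replicate 2 of either bipolar sort (-0.92 for MP, -0.84 for ON). Bipolar minus amacrine and ganglion minus amacrine cells share the amacrine arrays.

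**Figure D5:**
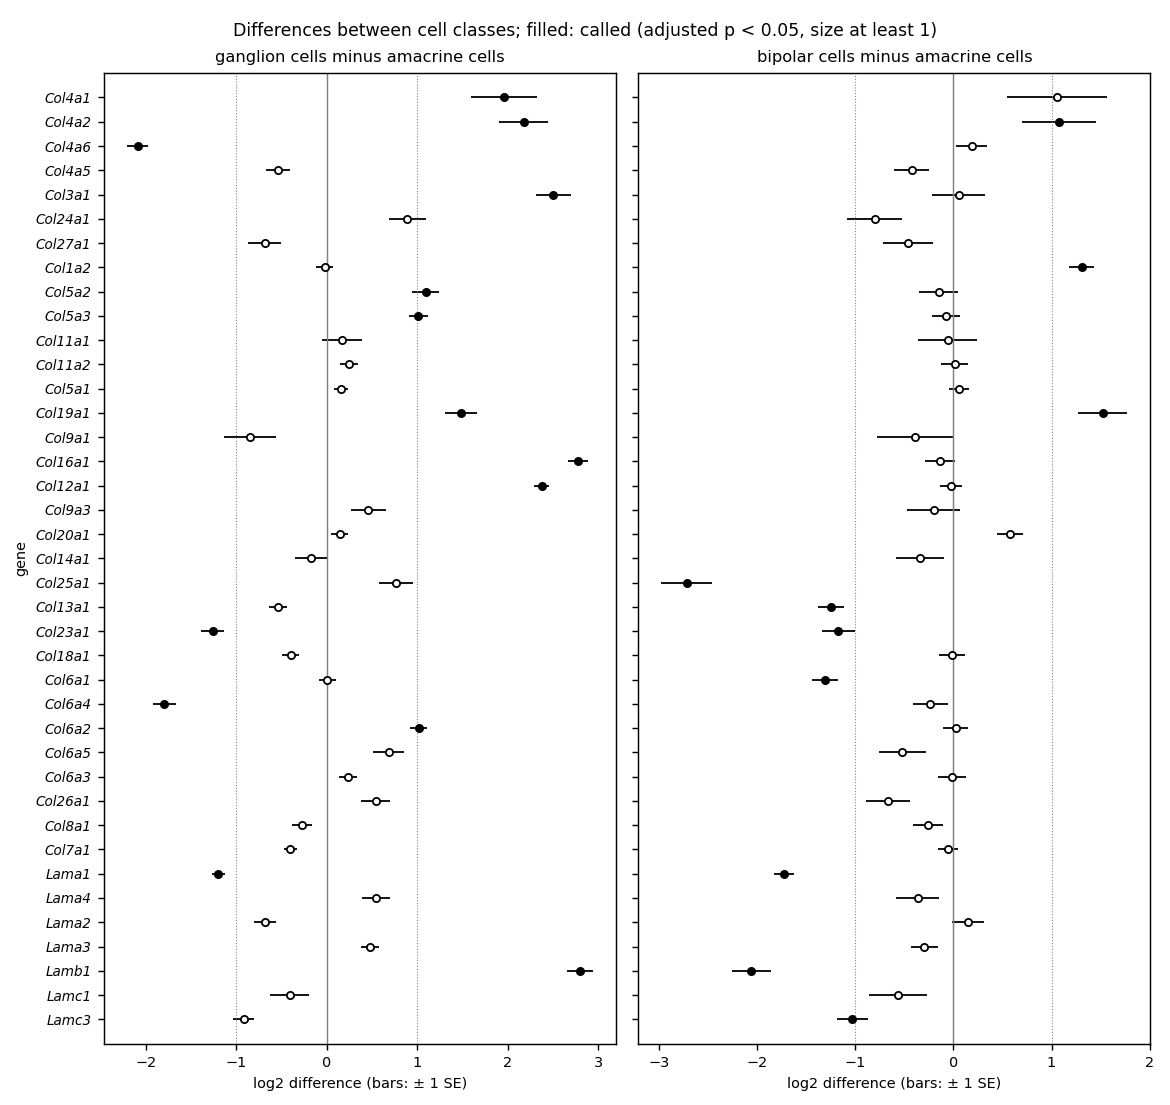
Log2 differences between classes with 1 SE for the 39 tested genes, in the role order of the plot of subtype means, for ganglion minus amacrine cells and bipolar minus amacrine cells. Filled points were called, and dotted lines mark a size of 1. Lamb1 lies at 2.80 in the left panel and at -2.06 in the right one, and Lama1 is below 0 in both.

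Within classes, each subtype was set against the other subtypes of its class, 12 contrasts in all, and these gave 52 calls in 19 genes. Starburst cells had 4 genes higher (background 5.32%) and 4 lower (5.61%), AII cells 4 higher (5.73%) and 7 lower (10.5%), and PaxCre cells 7 higher (4.97%) and 2 lower (1.56%). MP amacrine cells had 3 higher (5.13%) and 3 lower (5.25%), and J amacrine cells 2 higher (2.8%) and 1 lower (3.26%). ON against MP bipolar cells gave 4 higher (2.59%) and 1 lower (2.44%).

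Among ganglion cells, J and Cdh3 cells had 3 genes higher each (backgrounds 1.63% and 1.26%) and none lower (0.416% and 0.824%). BD cells had 1 higher (0.315%) and none lower (0.179%). W3 cells had 1 lower (0.459%) and W7 cells 2 lower (0.688%), with none higher (0.344% and 0.681%). Isl2 cells had none (0.194% and 0.0287%), where limma gave 7 genes at an unadjusted p under 0.05, 0 calls with a robust variance trend and 1 with array weights. Over both directions, limma gave 5 genes in BD, 7 in Cdh3, 13 in J, 6 in W3 and 4 in W7 cells at an unadjusted p under 0.05. No share of all genes at that unadjusted level is given here. The unadjusted counts are therefore not read as a result about the collagen and laminin genes. The robust trend kept all counts of calls in these subtypes, and array weights moved that of W3 cells alone, to 3. Beside the 3 collagen and laminin genes, 5 of the 8 tested pericyte and smooth muscle markers were called higher in J ganglion cells (background 1.63%).

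The enzymes, partners and receptors of these chains came from lists of 22, 8 and 15 genes, of which 20, 8 and 14 were measured and 19, 7 and 13 tested. Of the collagen-modifying and assembly enzymes 15 of 19 differed over the subtypes, beside 71.3% of all genes tested. In ganglion against amacrine cells 5 were higher (background 15.8%), among them Colgalt2, a collagen galactosyltransferase (2.67), and Crtap, part of the prolyl 3-hydroxylase complex (1.75), and P4ha1, a prolyl 4-hydroxylase subunit, was the 1 lower (-1.65, background 9%). Their median difference was -0.13 beside 0.003 for all genes. Loxl1, a lysyl oxidase that cross-links elastic fibres, was 5.10 higher in J amacrine cells than in the other amacrine subtypes (means 9.78 against 4.22 to 5.47). Serpinh1, the collagen chaperone HSP47, was 1.35 higher in J ganglion cells than in the other ganglion subtypes.

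Of the basement membrane partners 6 of 7 differed (background 71.3%), with 2 higher and 2 lower in ganglion than in amacrine cells (backgrounds 15.8% and 9%). Nid1, which links laminin to type IV collagen, was 2.47 and Sparc, a collagen-binding glycoprotein, 1.75 higher in ganglion than in amacrine cells, while the differences of Agrn, a heparan sulfate proteoglycan, and of Ntn4, a netrin that binds laminin, were -1.41 and -1.06. Nid1 was highest in J ganglion cells (mean 10.88) and read 6.85 in AII and 5.32 in ON bipolar cells. Ntn4 was highest in AII cells (mean 10.01), 1.94 above the other amacrine subtypes. Of the receptors 13 of 13 differed over the subtypes (background 71.3%), with 2 higher and 1 lower in ganglion than in amacrine cells (backgrounds 15.8% and 9%). Itga2 (2.04) and Itga6 (1.84) were higher and Itga10 (-2.25) lower in ganglion than in amacrine cells, and Itga1, the alpha chain of a collagen receptor, was 3.45 higher in J ganglion cells than in the other ganglion subtypes.

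The genes whose 13 subtype means were most like those of Col25a1 were Calb1 (r 0.88), Nsun4 (0.86), Krt35 (0.86), Ldlrad3 (0.84) and Dpy19l3 (0.84). For Col4a1 they were Col4a2 (0.94), Anxa1 (0.83), Zfp449 (0.83), Syne1 (0.82) and Ets1 (0.82). These r are descriptions over 13 points that share 1 normalization. With the mean of the 15 endothelium and pericyte markers, Col4a1 had an r of 0.65 over the 13 subtypes, 0.92 over the 6 ganglion and -0.55 over the 7 other subtypes, and Col25a1 had 0.45, 0.05 and 0.78.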

How the data were processed

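The deposited values are linear intensities, of which 2.87% to 4.01% in an array equal 1. What software and scaling the authors used is not given in the sources used here. Of the probe sets, 64 controls, 9160 without a symbol and 932 with several were left out. The 26 arrays were quantile normalized as log2(intensity + 16). Tests used limma 3.58.1 in R 4.3.3 with 1 mean per subtype and 13 residual degrees of freedom, Benjamini-Hochberg adjustment within each comparison, and a minimum size of 1. Genes with an F call and a range of at least 2 are described by their array values or ranges, and other genes are named where they were called. The genes and lists were chosen with earlier results of these data known. The array number limits precision. Arrays of 13951 genes were simulated with independent normal noise. The fit found 50% of changes of 1, 96% of 1.5 and 100% of 2 in ganglion minus amacrine cells. In the starburst contrast it found 36%, 90% and 98%. The shares for a change of 1 are set in large part by the minimum size of 1, so they do not measure the effect of array number. Alternatives were scaling, pseudocount, filter, probe set, variance model, block and leaving out arrays.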

Additional observations from a re-analysis of the deposited data

How the results depend on the processing

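Counts of calls held within 1.5 times under most alternatives. The exceptions were a pseudocount of 64, with 7 genes for ganglion minus amacrine cells, 6 for bipolar minus amacrine and 8 for bipolar minus ganglion cells; a filter at the 75th percentile, with 17 over the 13 subtypes and 8 for bipolar minus ganglion cells (18 genes tested); and subtype means as units, with 1 for bipolar minus amacrine cells, that is 2 bipolar points. Leaving out 1 array gave 30 to 34 genes over the 13 subtypes, 11 to 15 for ganglion minus amacrine, 8 to 11 for bipolar minus amacrine, 14 to 18 for bipolar minus ganglion cells, and 45 to 63 subtype calls. Of 91 single calls, 44 held in every alternative that kept the probe set, and none of the 91 turned direction in those. With the second probe set 26 of 47 held, and 4 turned: Col12a1 to -0.16 (ganglion minus amacrine) and 0.22 (bipolar minus ganglion), and Col25a1 to -0.15 (BD) and -0.20 (MP amacrine); the cause was not tested. With the replicate number as a block the counts were 33, 14, 10, 15 and 51, the 1 lost call being Col11a1 in AII cells. The numbers only name litters of different lines: replicate differences correlated between subtypes with a median r of 0.03, over 0.1 in 21 of 78 pairs. Quantile normalization within each set of arrays, F tests within each set and leaving out the J arrays were chosen after seeing the data. In the simulation differences near 1 were found least often, in large part because a call needs a size of at least 1.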

Other observations

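The 33 genes with several probe sets show how far a single probe set carries. In 22 of them the second brightest probe set also ranged over at least 1 between subtypes, and in 11 its subtype means correlated with those of the brightest at r of at least 0.7 (13 points, a description). Lamb1 (r 0.99), Col6a2 (0.97), Col1a2 (0.96), Col19a1 (0.92) and Col11a1 (0.90) agreed best. In 8 genes r was below 0, Col12a1 and Col14a1 among them. Col5a1, which was not called by its brightest probe set, ranged over 3.48 by its second, with 8.51 and 7.52 in J ganglion cells, 7.60 and 8.09 in W3 cells and 4.50 and 4.57 in AII cells.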
